A study of Saccharomyces cerevisiae with 21 samples.

Results

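The autophagy-related genes of budding yeast, named *ATG* followed by a number, were described across all 7 strains of an RNA sequencing study of membrane lipid saturation. Members were all genes of the count table whose symbol is *ATG* and a number and nothing else, which gave 37 of 7122 genes. The strains tested were *ino4Δ* and *mga2Δ* without plasmid, *mga2Δ* with a plasmid-borne *MGA2* or *mga2ΔTM* (called *MGA2* and *mga2ΔTM* here), *ino4Δ* carrying *mga2ΔTM* (the double mutant *ino4Δ mga2ΔTM*), and wild-type carrying *OLE1* (called *OLE1*), with wild-type BY4741 as the reference and 3 libraries per strain. In the labels the plasmids are pRS316-GPDprom-Mga2-mCh, pRS316-GPDprom-Mga2deltaTM-mCh and pRS316-GPDprom-Ole1-mCh, so every plasmid gene carries an mCherry tag and is driven by the strong constitutive GPD promoter. Plasmid strains grew in medium without uracil (SDC-URA), and *ino4Δ*, *mga2Δ* and wild-type in complete medium (SDC+All). No strain carried an empty plasmid, so the plasmid, its medium and the overexpressed gene cannot be told apart. The double mutant also keeps its chromosomal *MGA2*, which the *mga2ΔTM* strain lacks. All cells were growing exponentially, and the labels do not say whether the libraries of a strain came from separate cultures, so p-values measure the spread between these libraries only.

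Autophagy encloses cytoplasm or an organelle in a double membrane, the autophagosome, which fuses with the vacuole, where its content is broken down. The Atg1 kinase complex starts the process, Atg9 vesicles and Atg2 supply membrane lipid, a phosphatidylinositol 3-kinase complex marks the membrane, and a pair of ubiquitin-like systems attach Atg8 to its lipid anchor phosphatidylethanolamine. Receptors then choose cargo: Atg39 binds the nuclear envelope and perinuclear endoplasmic reticulum (ER), Atg40 the remaining ER, Atg32 mitochondria, Atg36 peroxisomes, and Atg19 and Atg34 vacuolar enzymes of the cytoplasm-to-vacuole (Cvt) pathway. Many *ATG* genes are kept low in growing cells and are induced on starvation. *INO4* encodes a subunit of the Ino2-Ino4 activator of phospholipid synthesis genes, Mga2 is the ER-bound activator of the fatty acid desaturase gene *OLE1*, and Mga2ΔTM lacks the transmembrane segment that anchors it.

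Binding motifs of 4 groups of regulators were searched in the 500 bases before each start codon on both strands, in the RefSeq R64 genome, the build of the count table. The stress element AGGGG, read by Msn2, Msn4, Rph1 and Gis1, was present in 17 of 37 *ATG* windows (45.9%), against 34.1% of all 5983 windows. The GATA motif GATAAG, read by Gln3, Gat1 and Dal80 under nitrogen control, was in 14 (37.8%), against 22.8% of all windows. The Ino2-Ino4 core CATGTG was in 4 (10.8%), those of *ATG7*, *ATG8*, *ATG19* and *ATG41*, against 13.2%. TAGCCGCC, a form of the site of the repressor Ume6, was in none (2.3% of all windows), nor was its core AGCCGCC, which was searched after the longer form gave no match (4.1%). The sites before *ATG39*, *ATG8* and *ATG40* are shown because these 3 genes carry the results below. They are read 5′ to 3′ on the strand of the gene, with the motif in capitals. Where the capitals differ from the letters above, the motif lies on the opposite strand.
ATG39 stress element, nearer: ttgcggtaaCCCCTttgcgcgac
ATG39 stress element, farther: cctccggacCCCCTaccccggtg
ATG39 GATA motif: cgacagctgCTTATCaaggtacct
ATG8 stress element, nearer: aggttgaggAGGGGattgataag
ATG8 stress element, farther: aatacaaaaAGGGGaaccattaa
ATG8 Ino2-Ino4 core: aaatcatagCACATGatatatcat
ATG40 GATA motif: caaatcgagGATAAGatttttgta
The *ATG39* (YLR312C) sites lie at chrXII:759090-759112, chrXII:759136-759158 and chrXII:759070-759093, and their motifs end 265, 311 and 245 bases before the start codon. Those of *ATG8* (YBL078C) lie at chrII:80786-80808, chrII:80809-80831 and chrII:80887-80910, and that of *ATG40* (YOR152C) at chrXV:618365-618388, all on the minus strand. The first *ATG8* window also holds a GATAAG at its end. The windows of *ATG1*, *ATG5*, *ATG17*, *ATG22* and *ATG45*, which are also described below, held none of these motifs. A match is a description of the sequence only.

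Libraries held 12552418 to 18372240 counts, and each *ATG* gene had 25 to 3317 counts in every library, so all 37 passed the filter on low counts that left 6164 genes tested. The engineered genes went with their labels: *MGA2* had 7 to 10 counts in *mga2Δ*, *INO4* had 18 to 29 in *ino4Δ* and 10 to 13 in the double mutant against 140 to 181 in wild-type, and the plasmid marker *URA3* had 2704 to 11623 counts in plasmid strains against 0 to 1 in the others. The genes of mating type a, that of BY4741, summed to 11095 to 25149 counts per library, those of mating type alpha to 71 to 251 and 4 meiosis genes to 238 to 646. By correlation of log2 counts, wild-type replicate 2 and *mga2Δ* replicate 1 stood apart from the other libraries of their strains. The values were 0.987 and 0.986 for wild-type replicate 2, against 0.993 between the others. For *mga2Δ* replicate 1 they were 0.985 and 0.987, against 0.994. Counts of calls without these libraries are given with the results. Chi-square per gene against counting noise also set others apart. It was, for instance, 35.12 and 42.46, against 11.41, for replicate 1 of the double mutant. For *MGA2* replicate 1 it was 29.07 and 46.91, against 18.34, and for *ino4Δ* replicate 3 32.55 and 17.09, against 7.02. By this measure *mga2Δ* replicate 1 again stood apart (51.98 and 50.32, against 17.13). Wild-type replicate 2 did not (28.34 and 32.48, against 29.38). No *ATG* gene shares a stretch of 50 bases, the read length, with another place in the genome, and only *ATG29* overlaps another RefSeq gene (*SET6*, by 24 bases, on the opposite strand).

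Levels of *ATG* mRNAs in wild-type were compared per kilobase of gene, in CPM (read counts normalised to an equal library size) per kb. *ATG39* had the lowest mean level of the 37 genes, 2.54 CPM per kb, and *ATG41*, which acts with Atg9, had the highest, 128.5 CPM per kb. The wild-type libraries of *ATG41* ranged widely, from 24.5 to 73.5 CPM before division by length, so its rank is uncertain. *ATG42*, a vacuolar carboxypeptidase gene, followed with 102 CPM per kb and *ATG27*, an Atg9 sorting factor gene, with 73.6 CPM per kb. *ATG8* stood at 27.9, *ATG40* at 15.2, *ATG1* at 15.1 and *ATG17* at 6.96 CPM per kb. Together the 37 genes took 0.160 to 0.185% of counts in *ino4Δ* libraries and 0.147 to 0.164% in *ino4Δ mga2ΔTM*. They took 0.117 to 0.151% in *mga2Δ*, 0.117 to 0.137% in *mga2ΔTM*, 0.118 to 0.119% in *OLE1*, 0.110 to 0.118% in *MGA2* and 0.0956 to 0.117% in wild-type. In these shares the libraries of every strain but *MGA2* lay above those of wild-type, those of *mga2Δ*, *mga2ΔTM* and *OLE1* by little at their lowest. Unlike the CPM values, the shares are of library totals without TMM scaling, and their order may differ with it. By library totals the median log2 fold change of all tested genes against wild-type was also above 0. It was 0.245 in *ino4Δ*, 0.235 in the double mutant, 0.104 in *mga2Δ*, 0.093 in *mga2ΔTM* and 0.032 in *OLE1* and *MGA2*.

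The deletion of *INO4* came with the broadest change: 19 of 37 *ATG* mRNAs rose in *ino4Δ* and none fell. A gene was called changed where edgeR gave an adjusted p below 0.05 (Benjamini-Hochberg, over all tested genes) together with a change of more than 1.5-fold. By this rule 29.3% of all tested genes were called in this comparison, 19.2% higher and 10.1% lower, against 51.4% of *ATG* genes. DESeq2 and limma-voom also called none lower, and 1 *ATG* gene was lower at an unadjusted p below 0.05. The median log2 fold change of the 37 genes was 0.61, against 0.03 for all tested genes, and 33 of 37 values were above 0. Markers of mating type and meiosis moved in the same comparison. Of the meiosis genes 3 of 4 rose (*IME1*, *IME2* and *NDT80*), and their summed level was 31.4 to 35.1 CPM in *ino4Δ*, against 15.7 to 21.1 CPM in wild-type. The alpha-cell genes rose, 3 of 3, to a sum of 13.3 to 14.95 CPM in *ino4Δ*, against 5.36 to 6.30 CPM in wild-type, where *MF(ALPHA)2* was at 0 in at least 1 library. Of the a-cell genes 3 of 5 fell and *MFA1* rose, with a sum of 811.6 to 853.1 CPM in *ino4Δ*, against 1244 to 1573 CPM in wild-type. Their part in the *ATG* values was not tested. In bulk RNA, a change in the share of cells that express a gene and a change in RNA per cell cannot be told apart.

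The genes that rose in *ino4Δ* came from nearly every step of the pathway. Of the 8 scaffold and receptor genes, 6 rose: *ATG39*, *ATG40*, *ATG34*, the mitophagy genes *ATG32* and *ATG33*, and *ATG11*, the scaffold that links receptors to the Atg1 kinase. In the Atg1 complex, 3 of 5 rose (the kinase gene *ATG1*, the scaffold gene *ATG17* and *ATG29*), while *ATG13* and *ATG31* were not called. In the ubiquitin-like systems, *ATG8* and its conjugating enzyme gene *ATG3* rose (2 of 4), as did *ATG10*, *ATG5* and *ATG16* (3 of 4), of which the first encodes the conjugating enzyme of Atg12. Of the 6 genes for Atg9 vesicles and lipid transfer, *ATG9* and the Atg9 trafficking factor gene *ATG23* rose, and *ATG2*, *ATG18*, *ATG27* and *ATG41* were not called. The remaining calls were *ATG38* of the PI3-kinase complex, the vacuolar lipase gene *ATG15*, and *ATG45*, whose product binds glycogen for autophagy. The sorting nexin gene *ATG20*, the phosphoinositide-binding factor gene *ATG21* and the sterol glucosyltransferase gene *ATG26* were not called, nor were *ATG22*, *ATG42* and *ATG44*, the last needed for mitochondrial fission in mitophagy. The stress element was found before 8 of the 19 genes that rose and 9 of the other 18, and GATAAG before 8 and 6.

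**Figure D1:**
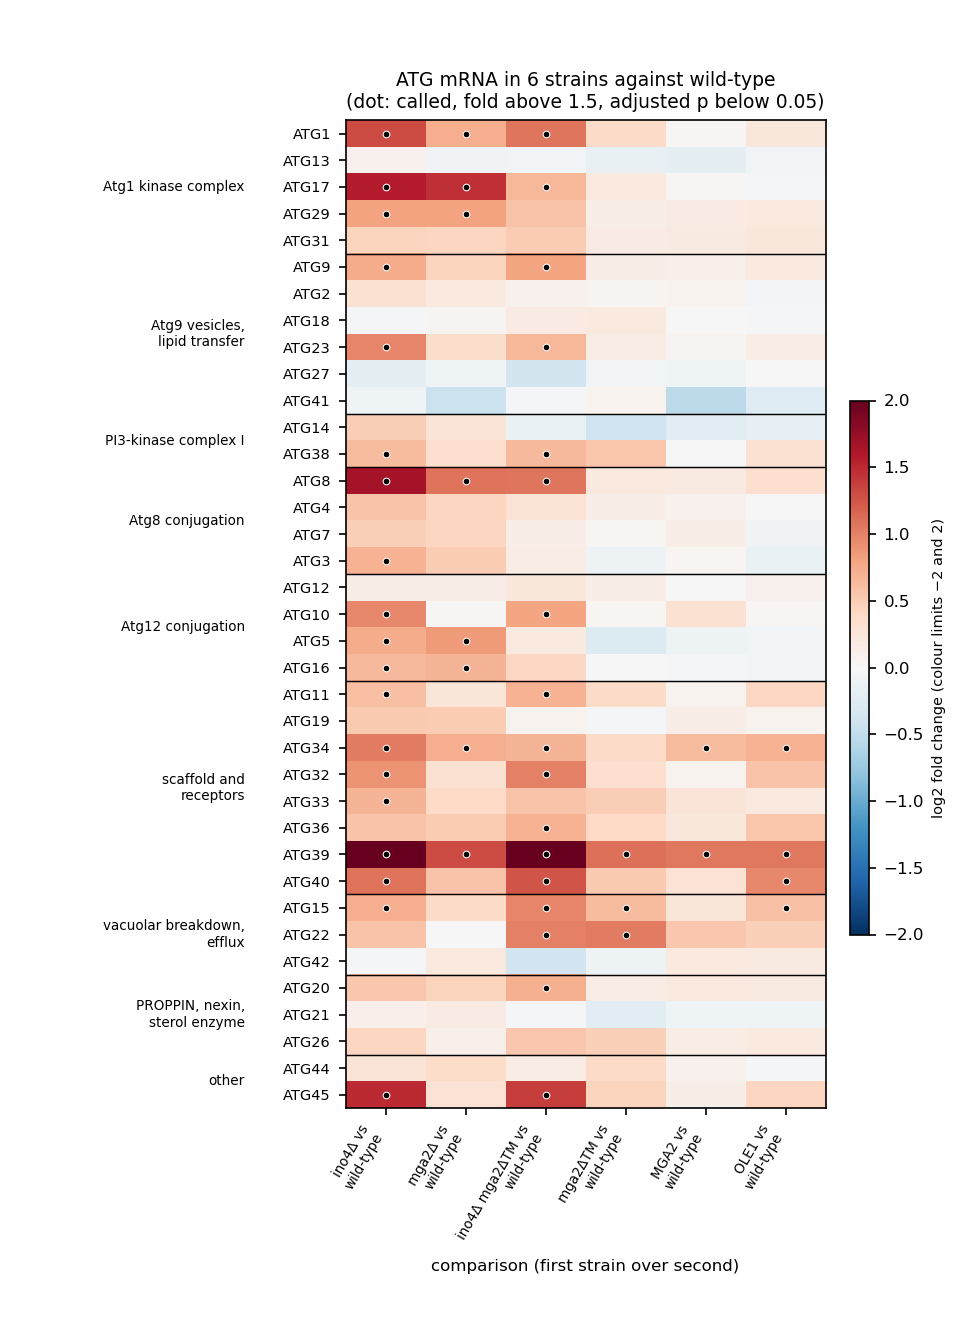
Log2 fold change of each of the 37 ATG mRNAs (grouped by role, top to bottom) in 6 strains against wild-type (left to right), from red, higher, to blue, lower, with colours limited to between -2 and 2. Black dots mark genes called at more than 1.5-fold and adjusted p below 0.05. There are 19 dots in ino4Δ, 8 in mga2Δ, 17 in the double mutant, 3 in mga2ΔTM, 2 in MGA2 and 4 in OLE1, all on red cells.

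*ATG39*, the receptor gene for the nuclear envelope, had the largest change. It had 22.1, 26.0 and 24.4 CPM in *ino4Δ*, against 2.19, 3.82 and 3.11 CPM in wild-type, where these are 35, 54 and 47 counts. The lowest *ino4Δ* library lay far above the highest wild-type library, and the gene was 7.98-fold higher (log2 3.00 ± 0.198 SE, edgeR adjusted p = 9.26e-10). *ATG8*, which coats the growing autophagosome, had 29.1, 32.7 and 32.2 CPM in *ino4Δ*, against 7.88, 13.4 and 8.40 CPM in wild-type. Wild-type replicate 2 was the highest of the wild-type libraries for this gene, and without overlap the fold was 3.18 (log2 1.67 ± 0.206 SE, edgeR adjusted p = 1.68e-06). *ATG17*, the scaffold of starvation-induced autophagy, had 25.2, 23.4 and 29.1 CPM in *ino4Δ*, against 7.88, 9.62 and 8.66 CPM in wild-type, a 2.97-fold difference (edgeR adjusted p = 4.64e-08). *ATG45* had 17.4, 15.7 and 14.8 CPM in *ino4Δ*, against 4.57, 5.66 and 6.88 CPM in wild-type. It was 2.80-fold higher (log2 1.49 ± 0.151 SE, edgeR adjusted p = 1.63e-07), with no overlap between the strains. *ATG1* had 106, 99.1 and 96.0 CPM in *ino4Δ*, against 35.4, 44.4 and 42.3 CPM in wild-type, a 2.47-fold difference with the smallest SE of these 5 genes (log2 1.30 ± 0.090, edgeR adjusted p = 1.51e-09).

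The receptor genes *ATG40* and *ATG34* followed. *ATG40*, the ER receptor gene, had 24.3, 24.9 and 25.3 CPM in *ino4Δ*, against 12.2, 13.1 and 9.85 CPM in wild-type (2.12-fold, edgeR adjusted p = 3.46e-06). *ATG34*, the receptor gene for the vacuolar mannosidase Ams1, had 28.9, 27.3 and 29.6 CPM in *ino4Δ*, against 14.1, 15.6 and 11.9 CPM in wild-type (2.06-fold, edgeR adjusted p = 5.73e-06). For both genes the *ino4Δ* libraries lay close together and above every wild-type library. The other 12 genes that rose had log2 fold changes between 0.61 (*ATG11*) and 0.98 (*ATG23*). Of these, *ATG3*, *ATG11*, *ATG16* and *ATG38* lost the call when 1 library was left out: *ATG3* stood at 0.58 without *ino4Δ* replicate 3, *ATG11* at 0.57 without *ino4Δ* replicate 1 and 0.52 without wild-type replicate 2, *ATG16* at 0.49 and *ATG38* at 0.48 without wild-type replicate 3, and at 0.56 and 0.50 without *ino4Δ* replicate 3. Without wild-type replicate 2, 25 *ATG* genes were called.

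**Figure D2:**
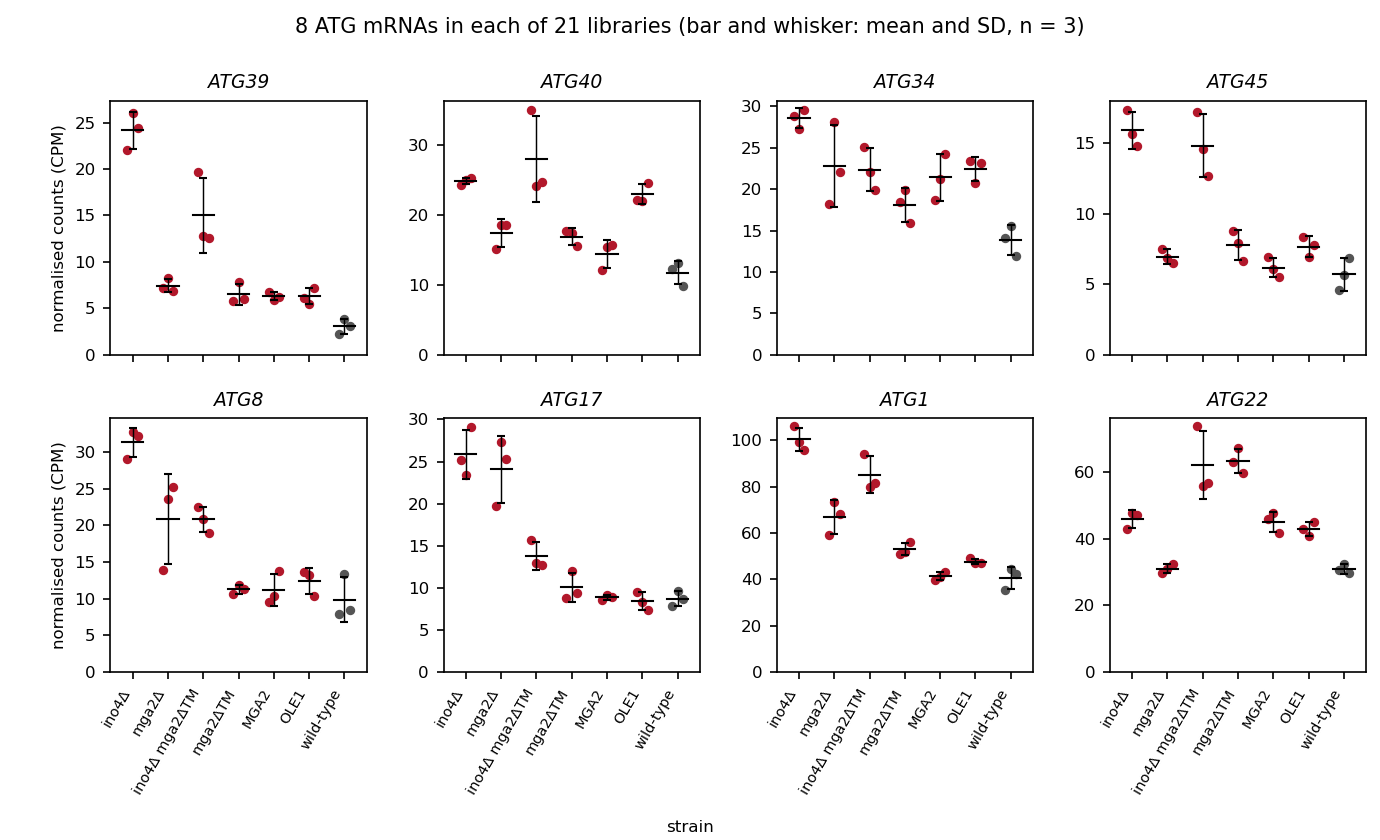
Normalised counts (CPM, linear axis from 0) of 8 ATG mRNAs in each of the 21 libraries, 1 point per library, with the mean as a bar and the SD as a whisker (n = 3 per strain; wild-type, grey, on the right). ATG39 is lowest in wild-type and highest in ino4Δ, ATG17 is high in ino4Δ and mga2Δ, and ATG22 is highest in mga2ΔTM and the double mutant.

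The deletion of *MGA2* changed a smaller set. In *mga2Δ* 8 *ATG* mRNAs rose and none fell, with 11.9% of all tested genes called, 9.52% higher and 2.38% lower, against 21.6% of *ATG* genes. No *ATG* gene was lower at an unadjusted p below 0.05 in edgeR, and DESeq2 and limma-voom called none lower. All 8 (*ATG1*, *ATG5*, *ATG8*, *ATG16*, *ATG17*, *ATG29*, *ATG34* and *ATG39*) also rose in *ino4Δ*, a comparison with the same wild-type libraries. Of these, *ATG1*, *ATG17* and *ATG29* belong to the Atg1 complex, and *ATG5* and *ATG16* encode the partners of Atg12 in the enzyme that places Atg8 on membranes. How many of all tested genes that rose in *mga2Δ* also rose in *ino4Δ* was not computed, so this overlap has no reference. The median log2 fold change of the 37 genes was 0.38, against 0.01 for all tested genes, and 34 values were above 0. In the same comparison 2 of 4 meiosis genes rose (*IME2* and *NDT80*; summed level 23.1 to 29.4 CPM in *mga2Δ*, against 15.7 to 21.1 CPM in wild-type) and 4 of 5 a-cell genes fell (666.3 to 951.8 CPM in *mga2Δ*, against 1244 to 1573 CPM in wild-type), while none of the 3 alpha-cell genes was called. Their part in the *ATG* values was not tested.

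*ATG17* had 19.7, 27.3 and 25.3 CPM in *mga2Δ*, against 7.88, 9.62 and 8.66 CPM in wild-type. Its 2.77-fold difference (log2 1.47 ± 0.145 SE, edgeR adjusted p = 7.28e-07) was the largest of any *ATG* gene in this strain. *ATG5* had 50.4, 67.1 and 64.9 CPM in *mga2Δ*, against 30.8, 39.0 and 31.6 CPM in wild-type (1.80-fold, edgeR adjusted p = 0.000107), and *mga2Δ* replicate 1 was the lowest of its strain. The same library was low for *ATG8*, which had 13.9, 23.5 and 25.3 CPM in *mga2Δ*, against 7.88, 13.4 and 8.40 CPM in wild-type (2.12-fold, log2 1.09 ± 0.208 SE, edgeR adjusted p = 0.00061). It lay just above wild-type replicate 2. *ATG1* had 59.2, 73.6 and 68.4 CPM in *mga2Δ*, against 35.4, 44.4 and 42.3 CPM in wild-type (1.65-fold, edgeR adjusted p = 1.12e-05). *ATG39* had 7.15, 8.29 and 6.90 CPM in *mga2Δ*, against 2.19, 3.82 and 3.11 CPM in wild-type (2.46-fold, log2 1.30 ± 0.209 SE, edgeR adjusted p = 0.000133). All 5 genes were separated from wild-type in every library.

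The size of the *mga2Δ* set moved with single libraries. Without wild-type replicate 2, 13 *ATG* genes were called, without *mga2Δ* replicate 1, 11, and without *mga2Δ* replicate 2, only 5. *ATG16*, *ATG29* and *ATG34* lost the call without *mga2Δ* replicate 2, with log2 values of 0.69, 0.68 and 0.54. *ATG16* also lost it without wild-type replicate 3 (0.52) or *mga2Δ* replicate 3 (0.48), and *ATG29* without wild-type replicate 1 (0.60) or 3 (0.69). *ATG41* varied most within wild-type, with 24.5, 60.4 and 73.5 CPM, against 38.5, 35.7 and 43.5 CPM in *mga2Δ*. Its log2 value in *mga2Δ* was -0.43 (edgeR adjusted p = 0.295), and it became a lower call at -0.79 without wild-type replicate 1.

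The strains *MGA2* and *mga2ΔTM*, which are *mga2Δ* cells with a plasmid, were compared with *mga2Δ* directly. Both overexpress the plasmid gene. Counts of *MGA2* were 46970 to 61220 in *MGA2* and 17037 to 19155 in *mga2ΔTM*, against 2374 to 3107 in wild-type. In *MGA2* against *mga2Δ*, 6 *ATG* mRNAs fell (*ATG1*, *ATG5*, *ATG8*, *ATG16*, *ATG17* and *ATG29*) and none rose, with 8.87% of all tested genes called, 2.86% higher and 6.02% lower. In edgeR 1 *ATG* gene was higher at an unadjusted p below 0.05, and DESeq2 and limma-voom called none higher. In *mga2ΔTM* against *mga2Δ*, 7 fell (*ATG3*, *ATG5*, *ATG8*, *ATG14*, *ATG16*, *ATG17* and *ATG29*) and *ATG22* rose, with 12.9% of all tested genes called, 5.63% higher and 7.27% lower. Both comparisons share the *mga2Δ* libraries, and in both the plasmid strain grew in the other medium. The a-cell genes rose, 4 of 5 in *MGA2* and 3 of 5 in *mga2ΔTM*, to sums of 1403 to 1515 CPM in *MGA2* and 1303 to 1432 CPM in *mga2ΔTM*, against 666.3 to 951.8 CPM in *mga2Δ*. Of the 4 meiosis genes, *NDT80* fell in both, and in *mga2ΔTM* *SPO11* fell and *IME1* rose. Their part in the *ATG* values was not tested.

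*ATG17* fell to 8.50, 9.19 and 8.88 CPM in *MGA2*, against 19.7, 27.3 and 25.3 CPM in *mga2Δ*. The difference was 2.72-fold (log2 -1.44 ± 0.145 SE, edgeR adjusted p = 7.37e-07). It stood at 8.77, 12.0 and 9.40 CPM in *mga2ΔTM*, which was 2.40-fold lower than in *mga2Δ* (edgeR adjusted p = 1.78e-06). Against wild-type, *ATG17* was not called in *MGA2* (log2 0.02 ± 0.153 SE) or *mga2ΔTM* (0.20 ± 0.152). *ATG5* fell to 37, 26.3 and 31.4 CPM in *MGA2* and to 29.1, 26.2 and 28.8 CPM in *mga2ΔTM*, against 50.4, 67.1 and 64.9 CPM in *mga2Δ*, by 0.95 and 1.12 on the log2 scale (edgeR adjusted p = 3.8e-05 and 4.01e-06). *ATG8* fell to 9.50, 10.4 and 13.7 CPM in *MGA2* and to 10.7, 11.8 and 11.3 CPM in *mga2ΔTM*, against 13.9, 23.5 and 25.3 CPM in *mga2Δ*, by 0.90 and 0.89 (edgeR adjusted p = 0.00309 and 0.00261). For *ATG8* in *MGA2*, replicate 3 lay just below *mga2Δ* replicate 1.

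*ATG1*, *ATG39* and *ATG22* took other courses. *ATG1* fell to 39.9, 41.2 and 43.3 CPM in *MGA2*, against 59.2, 73.6 and 68.4 CPM in *mga2Δ* (1.62-fold, edgeR adjusted p = 1.45e-05), and in *mga2ΔTM* it had 51.1, 51.9 and 56.2 CPM, a difference from *mga2Δ* that was under the fold threshold (log2 -0.34 ± 0.089 SE, edgeR adjusted p = 0.00689). *ATG39* had 6.79, 5.90 and 6.25 CPM in *MGA2* and 5.73, 7.84 and 6.004 CPM in *mga2ΔTM*, against 7.15, 8.29 and 6.90 CPM in *mga2Δ*. It was not called in either comparison (log2 -0.24 ± 0.192 SE and -0.20 ± 0.192). *ATG22*, a gene for export of amino acids from the vacuole, had 62.9, 67.2 and 59.8 CPM in *mga2ΔTM*, against 29.7, 30.9 and 32.5 CPM in *mga2Δ*. It was 2.04-fold higher (log2 1.03 ± 0.093 SE, edgeR adjusted p = 1.06e-07), and all *mga2ΔTM* libraries lay far above those of *mga2Δ*. In both comparisons the calls of *ATG16* and *ATG29* were lost without *mga2Δ* replicate 2 or 3. In *MGA2* they were also lost without *MGA2* replicate 2 or 3, and that of *ATG29* without *MGA2* replicate 1, at log2 values of -0.71 to -0.51 (*ATG16*) and -0.68 to -0.51 (*ATG29*). In *mga2ΔTM* they were also lost without *mga2ΔTM* replicate 1 or 3, at -0.69 to -0.50 (*ATG16*) and -0.65 to -0.56 (*ATG29*), and that of *ATG3* without *mga2ΔTM* replicate 1 (-0.56) or *mga2Δ* replicate 2 (-0.46). In *mga2ΔTM* against *mga2Δ* 5 genes were called without *mga2ΔTM* replicate 1 or *mga2Δ* replicate 2.

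**Figure D3:**
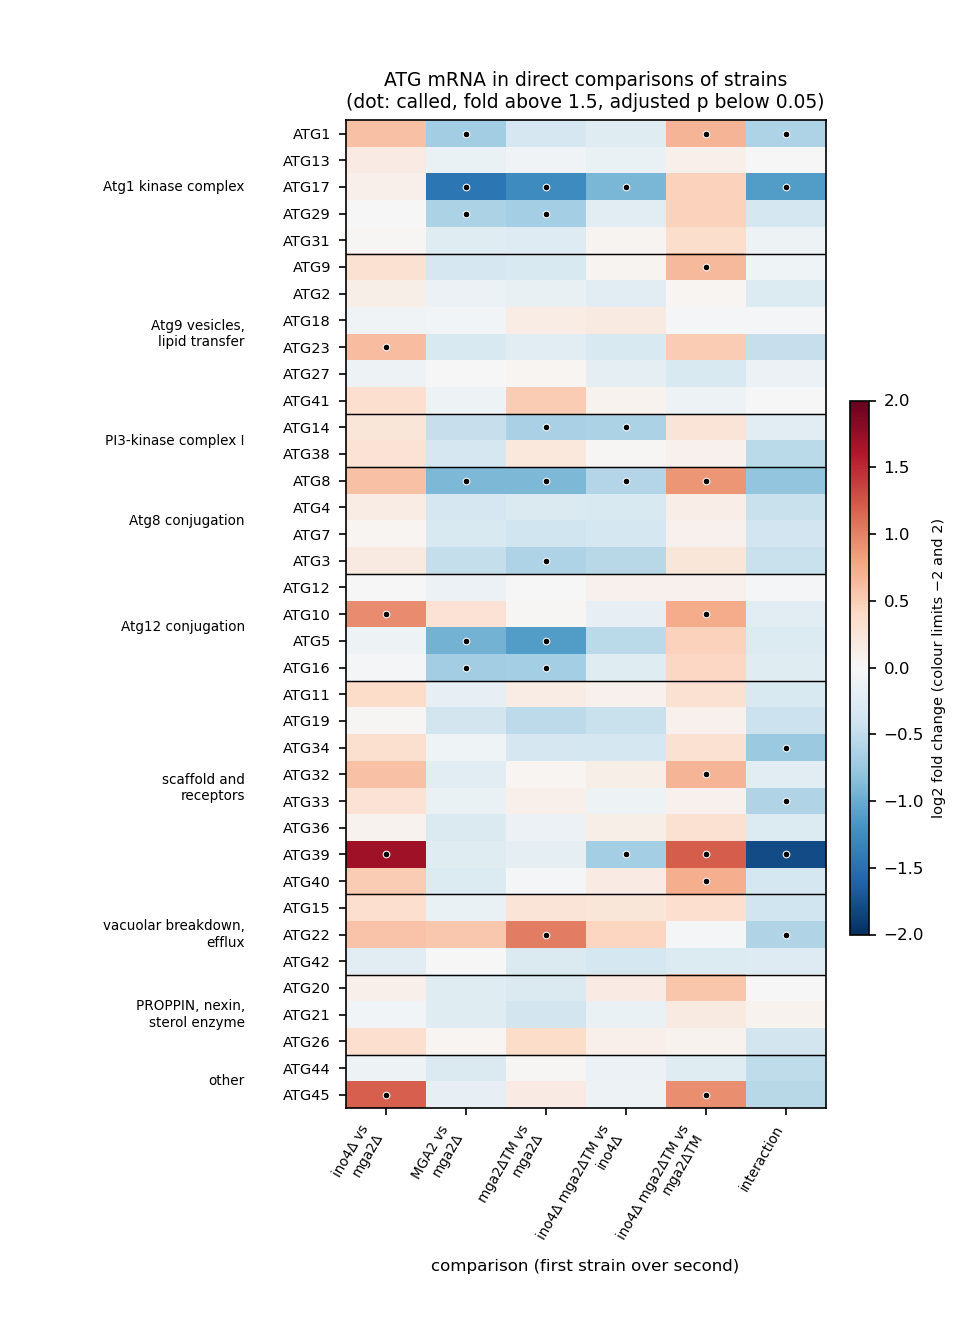
Log2 fold change of each of the 37 ATG mRNAs (grouped by role, top to bottom) in 5 direct comparisons of strains and in the interaction (double mutant over mga2ΔTM, less ino4Δ over wild-type). Dots mark called genes: ATG17 is lower in 3 of these comparisons and in the interaction, and ATG39 is higher in ino4Δ against mga2Δ and in the double mutant against mga2ΔTM, and lower in the double mutant against ino4Δ.

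Few *ATG* mRNAs changed against wild-type in the 3 single strains that carry a plasmid. In *mga2ΔTM* 3 rose (*ATG39*, *ATG22* and *ATG15*), with 7.95% of all tested genes called, 6.49% higher and 1.46% lower, against 8.1% of *ATG* genes. In *MGA2* 2 rose (*ATG39* and *ATG34*), with 3.97% of all tested genes called, 3.42% higher and 0.552% lower, against 5.4%. In *OLE1* 4 rose (*ATG39*, *ATG40*, *ATG34* and *ATG15*), with 7.07% of all tested genes called, 6.08% higher and 0.99% lower, against 10.8%. None fell in edgeR, DESeq2 or limma-voom, and at an unadjusted p below 0.05 in edgeR 1 was lower in *mga2ΔTM* and 0 in the other strains. The shares of *ATG* genes called were close to those of all genes here. Of the mating-type and meiosis markers, *IME1* rose in *mga2ΔTM*, *MFA1* in *MGA2*, and *STE3* and *MF(ALPHA)1* in *OLE1*, and no other was called.

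*ATG39* was called in each of the 6 strains, and no other *ATG* gene was. It had 5.73, 7.84 and 6.004 CPM in *mga2ΔTM*, 6.79, 5.90 and 6.25 CPM in *MGA2* and 6.13, 5.51 and 7.20 CPM in *OLE1*, against 2.19, 3.82 and 3.11 CPM in wild-type. These differences were 2.15-fold, 2.09-fold and 2.07-fold (edgeR adjusted p = 0.000906, 0.00317 and 0.00156). All 6 comparisons share the 3 wild-type libraries, where *ATG39* was at its lowest, and its call held without any one of them. Genes outside the *ATG* set, such as *PRB1* and *DAL80* described below, were also called in all 6 strains. How many of all tested genes were so called was not computed. Against *mga2Δ*, with other reference libraries but the same *ino4Δ* libraries, *ino4Δ* cells had 3.24-fold more *ATG39* (log2 1.70 ± 0.177 SE, edgeR adjusted p = 8.12e-07). The strains ordered by *ATG39* as *ino4Δ*, the double mutant, then *mga2Δ*, *mga2ΔTM*, *MGA2* and *OLE1* between 7.45 and 6.28 CPM on average, and wild-type. The libraries of those 4 middle strains overlapped in part.

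The other calls in the plasmid strains were smaller. *ATG40* had 22.2, 21.98 and 24.6 CPM in *OLE1*, against 12.2, 13.1 and 9.85 CPM in wild-type (1.96-fold, edgeR adjusted p = 9.6e-05). *ATG34* had 23.4, 20.8 and 23.2 CPM in *OLE1* and 18.7, 21.3 and 24.3 CPM in *MGA2*, against 14.1, 15.6 and 11.9 CPM in wild-type (1.62-fold and 1.55-fold, edgeR adjusted p = 0.00198 and 0.00878). Its call in *MGA2* was lost without wild-type replicate 3 (log2 0.52) or *MGA2* replicate 3 (0.51), which left 1 *ATG* gene called in that strain. *ATG15*, the lipase that opens autophagic bodies in the vacuole, had 48.7, 45.7 and 38.2 CPM in *mga2ΔTM* and 40.3, 41.8 and 45.6 CPM in *OLE1*, against 25.1, 30.7 and 29.3 CPM in wild-type. In *OLE1* it stood at the fold threshold (log2 0.59 ± 0.091 SE, edgeR adjusted p = 0.000147) and lost the call in 16 of the 21 fits that left out 1 library, and in *mga2ΔTM* (0.64 ± 0.091) it lost it without wild-type replicate 1 (0.54) or *mga2ΔTM* replicate 1 (0.54). *ATG22* had 62.9, 67.2 and 59.8 CPM in *mga2ΔTM*, against 30.7, 32.5 and 29.7 CPM in wild-type (2.05-fold, edgeR adjusted p = 1.65e-07), the largest separation among these genes.

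Between *mga2ΔTM* and *OLE1*, which share the medium and the promoter, no *ATG* gene was called, with 5.09% of all tested genes called, 2.87% higher and 2.22% lower. The *OLE1* strain keeps its chromosomal *MGA2*, which the *mga2ΔTM* strain lacks, so the plasmid gene is not their only difference. In edgeR 5 *ATG* genes were higher and 4 lower at an unadjusted p below 0.05, and DESeq2 and limma-voom called none. *ATG22* came nearest, with 62.9, 67.2 and 59.8 CPM in *mga2ΔTM* against 42.9, 40.8 and 44.9 CPM in *OLE1* (1.48-fold, log2 0.56 ± 0.092 SE, edgeR adjusted p = 0.000235). Its libraries did not overlap, and it passed the fold threshold without *OLE1* replicate 3 or *mga2ΔTM* replicate 3, at 0.59 in each case.

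The double mutant was set against wild-type, *ino4Δ* and *mga2ΔTM*. Against wild-type 17 of 37 *ATG* mRNAs rose in *ino4Δ mga2ΔTM* and none fell in edgeR, DESeq2 or limma-voom, with 27.2% of all tested genes called, 17.9% higher and 9.3% lower, against 45.9% of *ATG* genes. Under the fold threshold, 2 were lower, *ATG27* (log2 -0.37 ± 0.085 SE, edgeR adjusted p = 0.00124) and *ATG42* (-0.38 ± 0.132, edgeR adjusted p = 0.0197), and no other was lower at an unadjusted p below 0.05. Of the 17, 14 had also risen in *ino4Δ*, the 3 others being *ATG20*, *ATG22* and the pexophagy receptor gene *ATG36*. The matching overlap over all tested genes was not computed. In the same comparison 3 of 4 meiosis genes rose (summed level 27.7 to 41.3 CPM in *ino4Δ mga2ΔTM*, against 15.7 to 21.1 CPM in wild-type), as did 1 of 3 alpha-cell genes (*STE3*), while 2 of 5 a-cell genes fell and *MFA1* rose. Their part in the *ATG* values was not tested. *ATG3*, *ATG5*, *ATG16*, *ATG29* and *ATG33* were called in *ino4Δ* and not in the double mutant, and the direct comparison of the strains, given next, called none of the 5. Without *ino4Δ mga2ΔTM* replicate 1 the calls of *ATG17* (0.56), *ATG23* (0.58) and *ATG38* (0.58) were lost, as was that of *ATG20* without replicate 3 (0.58), and *ATG38* also stood at 0.58 without replicate 2 and 0.51 without wild-type replicate 3. Of the genes described above, *ATG39* had 19.7, 12.8 and 12.6 CPM in *ino4Δ mga2ΔTM*, against 2.19, 3.82 and 3.11 CPM in wild-type (4.95-fold, edgeR adjusted p = 1.9e-08). *ATG15* had 59.9, 55.3 and 51.5 CPM in *ino4Δ mga2ΔTM*, against 25.1, 30.7 and 29.3 CPM in wild-type (1.96-fold, edgeR adjusted p = 4.62e-08). *ATG1*, *ATG8*, *ATG22* and *ATG40* were 2.01-fold to 2.38-fold higher and *ATG45* 2.60-fold, each without overlap of libraries.

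Against *ino4Δ*, 4 *ATG* mRNAs fell in the double mutant (*ATG17*, *ATG39*, *ATG8* and *ATG14*, the last a subunit of the PI3-kinase complex) and none rose, with 9.46% of all tested genes called, 4.3% higher and 5.16% lower. In edgeR 3 *ATG* genes were higher at an unadjusted p below 0.05, and DESeq2 and limma-voom called none higher. *ATG17* had 15.7, 12.96 and 12.7 CPM in *ino4Δ mga2ΔTM*, against 25.2, 23.4 and 29.1 CPM in *ino4Δ* (1.88-fold lower, log2 -0.91 ± 0.138 SE, edgeR adjusted p = 7.41e-05). *ATG39* had 19.7, 12.8 and 12.6 CPM in *ino4Δ mga2ΔTM*, against 22.1, 26.0 and 24.4 CPM in *ino4Δ* (1.61-fold lower, edgeR adjusted p = 0.00479). Replicate 1 of the double mutant was the high one, and without replicate 2 or 3 the call was lost (log2 -0.58 and -0.56). *ATG8* had 22.5, 20.9 and 19 CPM in *ino4Δ mga2ΔTM*, against 29.1, 32.7 and 32.2 CPM in *ino4Δ*, without overlap. It stood at the fold threshold (1.51-fold lower, edgeR adjusted p = 0.029), and the call was lost in 18 of the 21 fits that left out 1 library. *ATG14* lost its call without *ino4Δ mga2ΔTM* replicate 1 (-0.52) or *ino4Δ* replicate 3 (-0.55), and without *ino4Δ mga2ΔTM* replicate 2 only 2 genes were called.

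Against *mga2ΔTM*, with the same plasmid and medium, 8 *ATG* mRNAs rose in the double mutant (*ATG1*, *ATG8*, *ATG9*, *ATG10*, *ATG32*, *ATG39*, *ATG40* and *ATG45*) and none fell, with 13% of all tested genes called, 9.31% higher and 3.68% lower, against 21.6% of *ATG* genes. One *ATG* gene was lower at an unadjusted p below 0.05 in edgeR, and DESeq2 and limma-voom called none lower. Of the markers, *IME2*, *NDT80* and *STE3* rose and *MFA2* and *STE2* fell in this comparison, and their part was not tested. *ATG39* had 19.7, 12.8 and 12.6 CPM in *ino4Δ mga2ΔTM*, against 5.73, 7.84 and 6.004 CPM in *mga2ΔTM* (2.30-fold, log2 1.20 ± 0.184 SE, edgeR adjusted p = 6.15e-05). *ATG45* had 17.2, 14.6 and 12.7 CPM in *ino4Δ mga2ΔTM*, against 8.77, 7.91 and 6.64 CPM in *mga2ΔTM* (1.91-fold, edgeR adjusted p = 9.07e-05). *ATG8* had 22.5, 20.9 and 19 CPM in *ino4Δ mga2ΔTM*, against 10.7, 11.8 and 11.3 CPM in *mga2ΔTM* (1.85-fold, edgeR adjusted p = 0.00249). In none of these 3 genes did the libraries overlap. *ATG1* had 94.2, 79.9 and 81.6 CPM in *ino4Δ mga2ΔTM*, against 51.1, 51.9 and 56.2 CPM in *mga2ΔTM* (1.61-fold, edgeR adjusted p = 1.26e-05). *ATG40* had 35.0, 24.1 and 24.6 CPM in *ino4Δ mga2ΔTM*, against 17.7, 17.4 and 15.5 CPM in *mga2ΔTM* (1.65-fold, edgeR adjusted p = 0.000506). Its replicate 1 was high, and without it *ATG40* (log2 0.55) and *ATG32* (0.57) lost the call. *ATG22* had 74.0, 55.9 and 56.8 CPM in *ino4Δ mga2ΔTM*, against 62.9, 67.2 and 59.8 CPM in *mga2ΔTM*, and was not called (log2 -0.03 ± 0.091 SE).

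*ATG17* differed between the strains that lack *INO4*. It was not called in the double mutant against *mga2ΔTM* (log2 0.46 ± 0.146 SE, edgeR adjusted p = 0.019), and in the double mutant against wild-type its log2 value was 0.66 ± 0.147, which fell under the fold threshold without *ino4Δ mga2ΔTM* replicate 1 (0.56). Between *ino4Δ* and *mga2Δ*, both without plasmid in complete medium, its log2 difference was 0.10 ± 0.134. In that comparison 4 *ATG* genes were higher in *ino4Δ* (*ATG39*, *ATG45*, *ATG10* and *ATG23*) and none lower, with 11.9% of all tested genes called, 9.65% higher and 2.27% lower, against 10.8% of *ATG* genes. No *ATG* gene was lower at an unadjusted p below 0.05 in edgeR, and DESeq2 and limma-voom called none lower. *ATG45* had 17.4, 15.7 and 14.8 CPM in *ino4Δ*, against 7.52, 6.85 and 6.48 CPM in *mga2Δ* (2.30-fold, edgeR adjusted p = 5.03e-06). *ATG1* (log2 0.58 ± 0.088 SE) and *ATG8* (0.58 ± 0.194) were just under the fold threshold, and *ATG23* lost its call without *ino4Δ* replicate 3 (0.57) or *mga2Δ* replicate 3 (0.58).

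The effect of lacking *INO4* in cells with the *mga2ΔTM* plasmid was compared with its effect in cells without plasmid by an interaction term (double mutant over *mga2ΔTM*, less *ino4Δ* over wild-type). It was negative and called for 6 *ATG* genes (*ATG1*, *ATG17*, *ATG22*, *ATG33*, *ATG34* and *ATG39*) and positive for none, with 8.97% of all tested genes called, 2.38% positive and 6.59% negative, against 16.2% of *ATG* genes. No *ATG* gene was positive at an unadjusted p below 0.05 in edgeR, nor called positive by DESeq2 or limma-voom. *ATG39* had the largest term, -1.79 ± 0.272 SE on the log2 scale (edgeR adjusted p = 0.000309), from log2 differences of 1.20 with the plasmid and 3.00 without, followed by *ATG17* (-1.11 ± 0.205, edgeR adjusted p = 0.00144), from 0.46 and 1.57. The median over the 37 genes was -0.35, against -0.03 for all tested genes. Without *ino4Δ mga2ΔTM* replicate 3, 2 genes were called, and 3 without *ino4Δ mga2ΔTM* replicate 2, *mga2ΔTM* replicate 2, *ino4Δ* replicate 3 or wild-type replicate 1. This term holds the plasmid, the medium and the chromosomal *MGA2* that only the double mutant keeps, and these cannot be told apart.

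Wild-type replicate 2 and *mga2Δ* replicate 1, which stood apart by correlation, also moved other counts of *ATG* calls. Without wild-type replicate 2, 5 genes were called in *OLE1*, 4 in *mga2ΔTM* and 19 in the double mutant against wild-type, 3 in the double mutant against *ino4Δ* and 7 in the interaction. Without *mga2Δ* replicate 1, 3 genes were called in *OLE1* against wild-type, 7 in *MGA2* and 9 in *mga2ΔTM* against *mga2Δ*, 3 in the double mutant against *ino4Δ*, 5 in *ino4Δ* against *mga2Δ* and 5 in the interaction. These libraries also enter the shared estimate of the spread in comparisons of other strains.

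**Figure D4:**
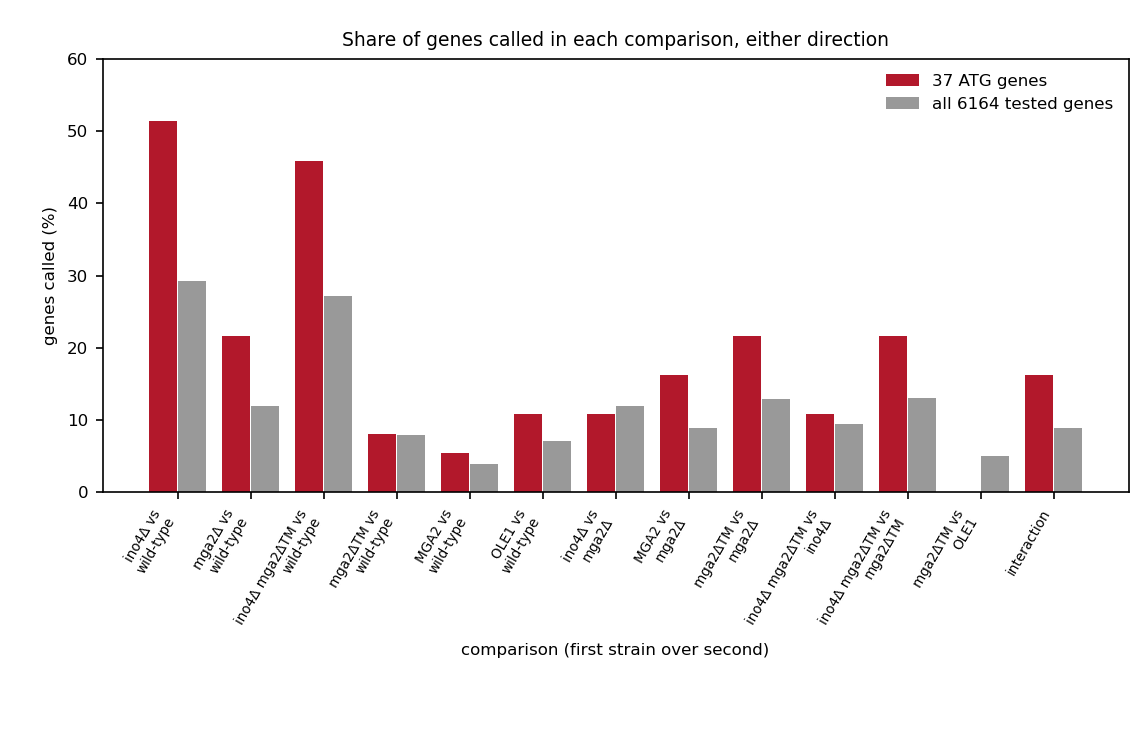
Percent of the 37 ATG genes (red) and of all 6164 tested genes (grey) that were called in either direction, for each of 13 comparisons (first strain over second, left to right). The red bars reach 51.4% in ino4Δ and 45.9% in the double mutant against wild-type, next to 29.3% and 27.2% of all genes, and stand at 0 between mga2ΔTM and OLE1.

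Of the 37 *ATG* genes, 15 were called in none of the 6 comparisons with wild-type. They include *ATG2*, *ATG18*, *ATG27* and *ATG41* of the membrane supply, *ATG13* and *ATG31* of the Atg1 complex, and *ATG14* of the PI3-kinase complex. *ATG4* and *ATG7*, the protease and the activating enzyme of Atg8, and *ATG12*, the second ubiquitin-like protein, were also among them, with *ATG19*, *ATG21*, *ATG26*, *ATG42* and *ATG44*. The share of all tested genes called in none of the 6 comparisons was not computed, so the 15 cannot be set against it. In the Atg1 complex the log2 values in *ino4Δ* were 1.57 for *ATG17*, 1.30 for *ATG1*, 0.80 for *ATG29*, 0.45 for *ATG31* and 0.08 for *ATG13*. A gene that was not called can still have changed. In *ino4Δ*, *ATG31*, *ATG4* (0.57) and *ATG19* (0.52) missed only the fold threshold (edgeR adjusted p = 0.0011, 0.00238 and 0.000924). Others, such as *ATG13* and *ATG12* (0.12), also missed the adjusted p (0.602 and 0.409 in edgeR).

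Other genes of the pathway were described in the same way. Of 11 autophagy genes without an *ATG* symbol, among them the PI3-kinase genes *VPS34*, *VPS15* and *VPS30*, 1 rose in *ino4Δ* and in *mga2Δ* (the sorting nexin gene *SNX4*, log2 0.71 ± 0.135 and 0.79 ± 0.136 SE), 1 in the double mutant (the Trs85 tethering subunit gene *TRS85*, 0.68 ± 0.098), and none in the other strains. *SNX4* also fell in *MGA2* and *mga2ΔTM* against *mga2Δ* (-0.77 ± 0.136 and -0.65 ± 0.135). Of 13 genes for fusion with the vacuole, *YPT7*, its Rab GTPase gene, fell in *ino4Δ* and the double mutant (-0.63 ± 0.063 and -0.65 ± 0.063), while *VAM3*, a vacuolar SNARE gene, rose in *mga2ΔTM* and the double mutant (0.64 ± 0.090 and 0.61 ± 0.089), as did the tethering subunit gene *VPS41* in the double mutant (0.64 ± 0.091). Of 9 genes for vacuolar hydrolases and cargo of the Cvt pathway, *PRB1*, the vacuolar proteinase B gene, rose in all 6 strains, by 2.002 ± 0.118 in *ino4Δ*, 1.48 ± 0.117 in *mga2Δ*, 1.69 ± 0.117 in the double mutant and 0.72 to 0.91 in the 3 others. *AMS1*, the mannosidase gene whose product Atg34 binds, rose in *mga2Δ* (2.05 ± 0.155), *ino4Δ* (2.002 ± 0.155), the double mutant (1.33 ± 0.153), *OLE1* (1.23 ± 0.153) and *mga2ΔTM* (0.69 ± 0.153). *LAP3*, an aminopeptidase gene, fell in *ino4Δ* (-0.64 ± 0.073), and *APE1*, the main Cvt cargo gene, rose in *mga2Δ* and *OLE1* (0.68 and 0.60, ± 0.089 each), as did *PEP4*, the proteinase A gene, in *OLE1* (0.67 ± 0.066). Each of these comparisons with wild-type shares its 3 libraries, and the shares of all tested genes called in each are given above.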

How the data were processed

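The authors depleted rRNA, sequenced single-end reads of 50 bases, aligned them to genome build R64 with STAR 2.5.1b and used HTSeq 0.5.4p3 for gene counts, and the deposited table of raw counts for 21 libraries was used here. The strand setting of the counting is not given in the sources used here, so genes that overlap on opposite strands are less certain. A deposited table of normalised values was not used. Of 7126 lines, 4 named no gene, and 6045 of 7122 identifiers matched RefSeq, 5278 with a symbol.

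Genes were filtered with filterByExpr (minimum count 10, minimum total 15). Libraries were scaled by TMM and fitted together, 1 mean per strain, by robust quasi-likelihood in edgeR 4.0.16 under R 4.3.3. CPM values use the same scaling. In 13 comparisons, genes were called where they passed both 1.5-fold and an adjusted p of 0.05 (Benjamini-Hochberg, over all 6164 genes). Values per library are given for *ATG8*, *ATG39*, *ATG40* and, per comparison with wild-type, up to 4 called members with the smallest adjusted p; *ATG41* was added after its values were seen. Members and lists were chosen with earlier results of these data known. Alternatives were RLE size factors, library totals, no filter, a filter of 1 CPM in 3 libraries, DESeq2 1.42.0, limma-voom (limma 3.58.1), a replicate block, only the compared strains, no fold threshold, and leaving out each library. Figures were drawn with matplotlib 3.10.9.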

Additional observations from a re-analysis of the deposited data

Results flagged for a closer look

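The effect of lacking *INO4* differed between cells with the *mga2ΔTM* plasmid and cells without it for 6 *ATG* genes, by the interaction term in edgeR with Benjamini-Hochberg adjusted p below 0.05 and more than 1.5-fold. On the log2 scale the difference was -1.792 for *ATG39*, -1.113 for *ATG17*, -0.74 for *ATG34*, -0.621 for *ATG1*, -0.597 for *ATG33* and -0.595 for *ATG22*. The terms of *ATG39* and *ATG17* passed the threshold without any one of the 21 libraries. Those of *ATG33* and *ATG22* fell under the fold threshold in 17 and 16 of these 21 fits and that of *ATG1* in 5, while *ATG34* kept its fold and missed the adjusted p in 4. For *ATG1* these left out wild-type replicate 1 (-0.49), *ino4Δ* replicate 1 (-0.55), *mga2ΔTM* replicate 3 (-0.55) and *ino4Δ mga2ΔTM* replicates 2 (-0.55) and 3 (-0.56). For *ATG34* they left out wild-type replicate 3 (-0.61), *ino4Δ* replicate 3 (-0.67), *mga2ΔTM* replicate 2 (-0.63) and *ino4Δ mga2ΔTM* replicate 3 (-0.63). *ATG8* became the seventh call without wild-type replicate 2 (-1.02). The plasmid, the medium and chromosomal *MGA2* cannot be told apart in this term.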

How the results depend on the processing

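Of 89 called values of *ATG* genes over the 13 comparisons, 60 held without any one of the 21 libraries, 29 were lost in at least 1 such fit and none changed direction under any alternative. All 89 held with library totals, without the filter, with the 1 CPM filter and with limma-voom, 85 with RLE size factors and with DESeq2, and 80 with only the compared strains. Same-numbered libraries of different strains had a mean correlation of 0.018, and others of -0.01. These values were centred within each strain, which ties the means together. Of 63 same-numbered pairs, with correlations from -0.352 to 0.448, 20 lay above 0.1, and pairing of some strains was not tested. With replicate numbers as a block 88 held, with 19 genes called in *ino4Δ*, 8 in *mga2Δ* and 18 in the double mutant against wild-type.

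Leaving out 1 library, the genes called against wild-type ranged from 16 to 25 in *ino4Δ*, 5 to 13 in *mga2Δ*, 3 to 5 in *OLE1*, 1 to 2 in *MGA2*, 2 to 4 in *mga2ΔTM* and 14 to 19 in the double mutant. They ranged from 4 to 7 in *MGA2* and 5 to 9 in *mga2ΔTM* against *mga2Δ*, 2 to 5 and 7 to 9 in the double mutant against *ino4Δ* and *mga2ΔTM*, 0 to 1 in *mga2ΔTM* against *OLE1*, 4 to 6 in *ino4Δ* against *mga2Δ*, and 2 to 7 in the interaction. Without the fold threshold the counts were 29 in *ino4Δ*, 22 in *mga2Δ*, 8 in *OLE1*, 4 in *MGA2*, 13 in *mga2ΔTM* and 23 in the double mutant (21 higher, 2 lower) against wild-type, 8 in the interaction, 11 and 13 in *MGA2* and *mga2ΔTM* against *mga2Δ*, 11 and 16 in the double mutant against *ino4Δ* and *mga2ΔTM*, 4 in *mga2ΔTM* against *OLE1* and 13 in *ino4Δ* against *mga2Δ*.

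Library totals moved the median log2 fold change of all genes to 0.25 in *ino4Δ*, 0.24 in the double mutant and 0.10 in *mga2Δ*, against 0.03, 0.03 and 0.01 with TMM. They gave 28, 22 and 12 *ATG* calls in these strains, 5 in *mga2ΔTM*, 1 in *mga2ΔTM* against *OLE1* and 9 in *ino4Δ* against *mga2Δ*. The 1 CPM filter gave 7 in the last comparison, and a fit of only the compared strains 1 in *MGA2* and 2 in the double mutant against *ino4Δ*. The causes were not tested. At 35 to 54 counts, as for *ATG39* in wild-type, counting error limits the fold.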

Other observations

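Genes under nitrogen catabolite repression, which are kept off when preferred nitrogen sources are at hand and are read by GATA factors, followed another order of strains than the *ATG* genes. Of 8 such genes, 7 rose in *mga2ΔTM*, 6 in *OLE1*, 6 in the double mutant, 5 in *MGA2*, 5 in *ino4Δ* and 2 in *mga2Δ*, all against wild-type. Their median log2 fold changes were 2.18, 1.81, 1.79, 1.35, 0.69 and 0.18 in the same order of strains. Of all tested genes, 6.49%, 6.08%, 17.9%, 3.42%, 19.2% and 9.52% were called higher, again in this order. The 4 highest medians were those of the strains grown without uracil. Of these strains, 3 had 2 to 4 *ATG* genes called against wild-type, and the double mutant had 17. The plasmid and the medium cannot be told apart. The ammonium permease gene *MEP2* rose by 2.93 ± 0.127 (SE) in *mga2ΔTM*, 2.69 ± 0.126 in *OLE1* and 1.07 ± 0.124 in *ino4Δ*.

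Of 22 genes for regulators of autophagy, 2 rose in *ino4Δ*, *MGA2* and *mga2ΔTM*, 1 rose in each other strain, and none fell, all against wild-type. Of all tested genes, 19.2% were called higher in *ino4Δ*, 17.9% in the double mutant and 9.52% in *mga2Δ*. The shares were 6.49% in *mga2ΔTM*, 6.08% in *OLE1* and 3.42% in *MGA2*. *DAL80*, a GATA repressor gene that is itself under nitrogen control, rose in all 6 strains, by log2 1.14 ± 0.370 in *mga2Δ* to 4.22 ± 0.267 in the double mutant. *MSN4*, the gene of a stress element activator, rose in *ino4Δ* (0.73 ± 0.127) and *MGA2* (0.63 ± 0.127), and *GAT1*, a GATA activator gene, in *mga2ΔTM* (0.75 ± 0.104). *UME6*, *RPH1*, *GLN3*, *MSN2*, *SNF1* and the TOR kinase genes were called in none of the 6 strains. Activity of these proteins was not measured.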
